A study of Homo sapiens with 6 samples.

Results

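The genes described here were REST, SRRM4 and 7 markers used to recognise neuroendocrine differentiation of prostate cancer, CHGA, CHGB, SYP, INSM1, NCAM1, SCG2 and NSG2. They were taken by symbol from a table of 35322 gene symbols, and all 9 were found in it. RNA of 22Rv1 cells, an established human prostate carcinoma line with a luminal character, was sequenced in 6 libraries. The 2 control libraries were labelled wild type, and 2 libraries each came from cells in which ZMYND11, a chromatin reader of histone H3.3 lysine methylation, was knocked down, named kd1 and kd2 (ZM11-kd1 and ZM11-kd2 in the labels). All cells were grown in RPMI1640 with fetal bovine serum and had no other treatment according to their labels. A legend of the study names control hairpin RNAs for this sequencing, while the labels call the controls wild type, and these sources were not reconciled here. The sources used here do not say which hairpin each knockdown carried or whether the 2 libraries of a group came from separate cultures, so p-values measure only the spread between these libraries.

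REST is a zinc finger repressor that keeps neuronal genes silent in non-neuronal cells by binding RE1 elements and recruiting the CoREST and SIN3 corepressors with histone deacetylases. SRRM4 is a neural splicing factor that includes neuronal microexons, and it can redirect REST pre-mRNA to a truncated isoform with weak repressor activity. In prostate tumours that lose luminal identity under androgen receptor blockade, low REST activity, SRRM4 and granule proteins such as chromogranin A and synaptophysin are used as signs of a neuroendocrine fate.

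ZMYND11 had 4283 and 4179 counts in control, 941 and 773 in kd1 and 770 and 779 in kd2. It fell by 2.35 on the log2 scale in kd1 (adjusted p = 5.00e-13) and by 2.64 in kd2 (adjusted p = 3.78e-13) in edgeR's quasi-likelihood test. Library totals ran from 26844128 to 38193748 counts. All 10 markers of prostate luminal cells were detected in all 6 libraries, and their summed level was 2803 and 2807 CPM (counts scaled to the effective library size by TMM, edgeR's scaling) in control, 3037 and 3067 in kd1 and 3686 and 3693 in kd2. Of 12 markers of basal, stromal and immune cells, 4 to 8 had more than 3 counts in a library. Their summed level was 33.4 and 36.2 CPM in control, 86.4 and 86.9 in kd1 and 43.97 and 44.43 in kd2, and most of it was COL1A1, at 74.2 and 74.8 CPM in kd1. This sum moved with the knockdown, and its part in the results was not tested. In bulk RNA, fewer cells with a transcript and less of it in each cell cannot be told apart.

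Because REST acts through RE1 elements, the sequence around each gene's start was searched for the canonical element. The search took the element as TTCAGCACC and GGACAGCGC with 2 free bases between them, on both strands and within 5000 bp of the transcription start, and allowed up to 3 mismatches of the 18 letters. It used the GRCh38 genome and GENCODE 44 starts. A match was found for 4 of the 9 genes, against 513 of 20046 protein-coding genes (2.56%). The 9 genes were chosen around REST and neuroendocrine markers, so this comparison is not a test. The 4 matches, and those of CDK5R2 and GRIA2, which are neuronal genes described further on, are shown so that their letters can be compared, with capitals where a letter equals the searched element.
CHGA: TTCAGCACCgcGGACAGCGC
CHGB: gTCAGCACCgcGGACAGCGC
SRRM4: TTCAGCACtttGGACAGCGC
SYP: TcCAGCACCgtGGACAGaGC
CDK5R2: TTCAGCACCacGGACAGCGa
GRIA2: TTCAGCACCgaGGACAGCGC
The CHGA match, at chr14:92923523-92923542 on the plus strand, was exact and lay in an intron 383 bp downstream of the start. The CHGB match, at chr20:5911704-5911723 on the plus strand, had 1 mismatch and lay in an intron 204 bp downstream. The SRRM4 match, at chr12:118981833-118981852 on the plus strand, had 1 mismatch and lay in an untranslated part of an exon 302 bp downstream. The SYP match, at chrX:49200123-49200142 on the minus strand, had 2 mismatches and lay in an intron 60 bp downstream. All 4 were on the strand of their gene. The better of 2 CDK5R2 matches, with 1 mismatch against 3, was at chr2:218963018-218963037, and the GRIA2 match was at chr4:157220389-157220408, both on the minus strand. REST, INSM1, NCAM1, SCG2 and NSG2 had no match, and their closest sequences had 5 or 6 mismatches. These matches are a description of the letters, and binding of REST was not measured.

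**Figure D1:**
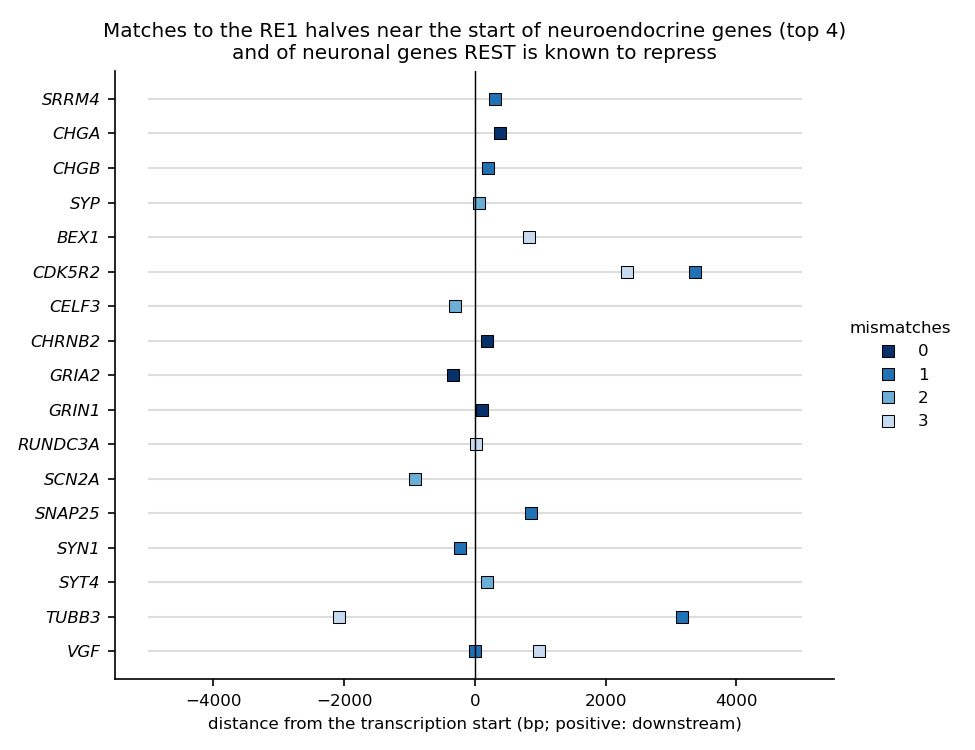
Position of each match to the RE1 element, as distance from the transcription start in bp, for the 4 neuroendocrine genes with a match (top) and, below them, 13 of the 14 matched neuronal genes; darker squares have fewer mismatches. The matches of SRRM4, CHGA, CHGB and SYP lie between 60 and 383 bp downstream of the start.

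Of the 9 genes, 8 passed the filter on low counts and were tested, and INSM1 was below detection. Levels between genes were compared per length, as RPKM (CPM per kilobase of exon) with the summed exon length of each gene in GENCODE 44, so a gene transcribed as a shorter isoform is understated. In the control libraries SRRM4 was at 19.8 ± 0.63 RPKM (SD, n = 2), SYP at 14.2 ± 0.75, REST at 13.3 ± 0.29 and CHGB at 10.9 ± 0.58. NSG2 followed at 3.62 ± 0.16 RPKM and SCG2 at 3.53 ± 0.22, and their libraries overlapped. CHGA was at 2 ± 0.047 RPKM, while INSM1 and NCAM1 were under 0.02 on average and overlapped. So the control cells contained transcripts of the splicing factor and of several granule genes, with INSM1 and NCAM1 at or near 0.

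The order changed in the knockdowns. CHGB was highest in kd1, at 17.95 ± 0.35 RPKM (SD, n = 2), then SYP at 14.16 ± 0.58, REST at 8.70 ± 0.58, SRRM4 at 3.01 ± 0.074, SCG2 at 2.24 ± 0.15 and CHGA at 0.295 ± 0.073. In kd2 CHGB was again highest, at 14.1 ± 0.58 RPKM, followed by SYP at 11.2 ± 1.5 and REST at 10.7 ± 0.082, which overlapped, SRRM4 at 7.43 ± 0.84, SCG2 at 4.11 ± 0.18 and CHGA at 0.426 ± 0.013. SRRM4 went from first place in control to the fourth in both knockdowns. NSG2 went from the fifth place to the eighth.

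**Figure D2:**
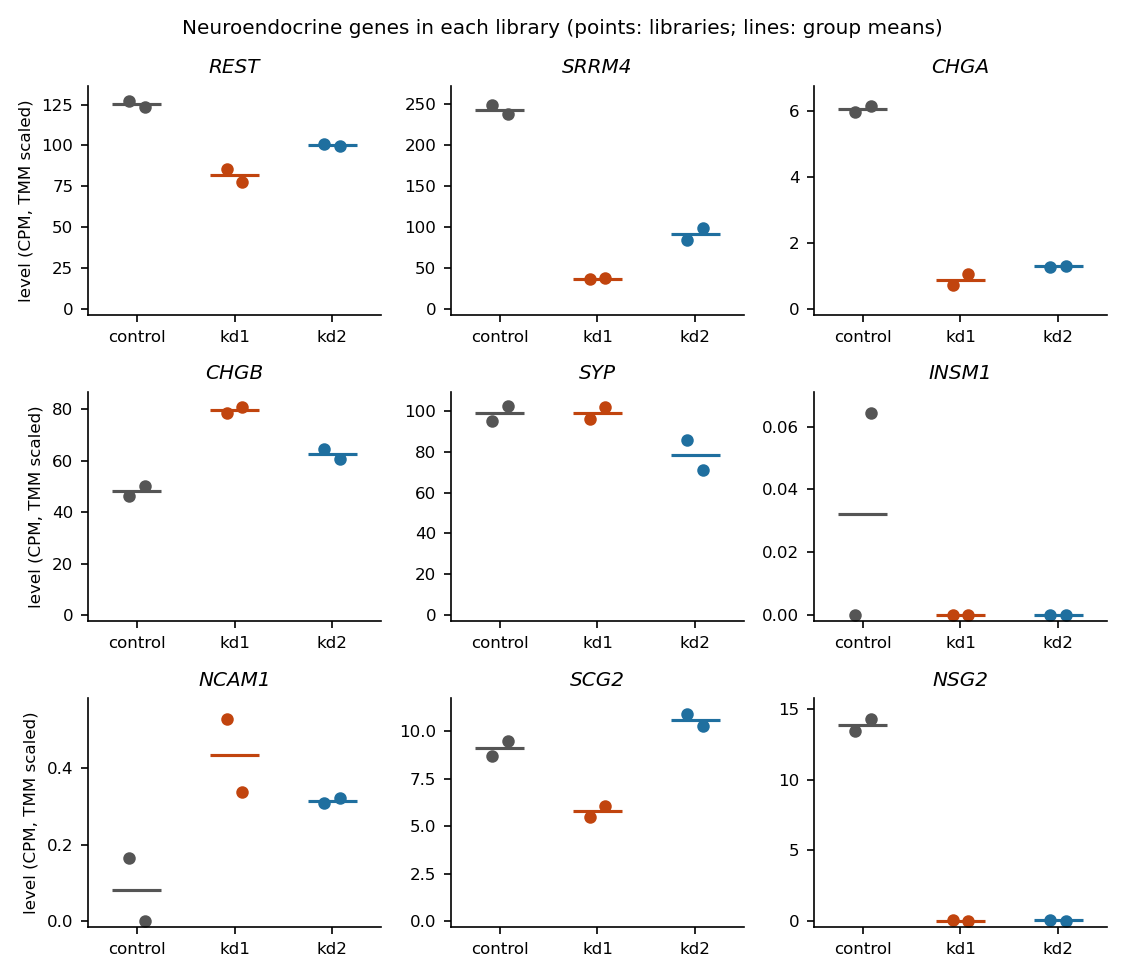
Level of each of the 9 genes in CPM (linear axes from 0, a different range in each panel), with 1 point for each of the 6 libraries and a line at the mean of each group. SRRM4, CHGA, REST and NSG2 lie lower in all 4 knockdown libraries than in both control libraries. CHGB and, at trace counts, NCAM1 lie higher, and INSM1 has 2 counts in a single control library.

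The genes moved in both directions when ZMYND11 was depleted. In kd1, CHGB rose, REST, SRRM4, CHGA, SCG2 and NSG2 fell, and SYP did not pass the test. NCAM1 was called higher in kd1, but at trace counts, having passed the low-count filter only through the knockdown libraries, and the call was lost without either of 2 single libraries. In kd2, CHGB rose, REST, SRRM4, CHGA, SYP and NSG2 fell, and NCAM1 and SCG2 did not pass. With NCAM1 and NSG2, 7 of 8 tested genes were called in kd1, and with NSG2, 6 of 8 in kd2. NSG2 passed the filter only through the control libraries, where it is higher. Over all 16510 genes tested, 78% were called in kd1 and 73.4% in kd2 at an adjusted p under 0.05, so the number called was near that of genes at large. The median log2 fold change of the 8 genes was -0.64 in kd1 and -0.33 in kd2, against -0.03 over all genes in both. The medians were -0.99 and -0.50, against -0.38 and -0.20 over all genes, when scaled by library totals alone. With the adjustment for GC content and length of genes they were -0.45 and -0.18. The 2 comparisons share the control libraries.

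**Figure D3:**
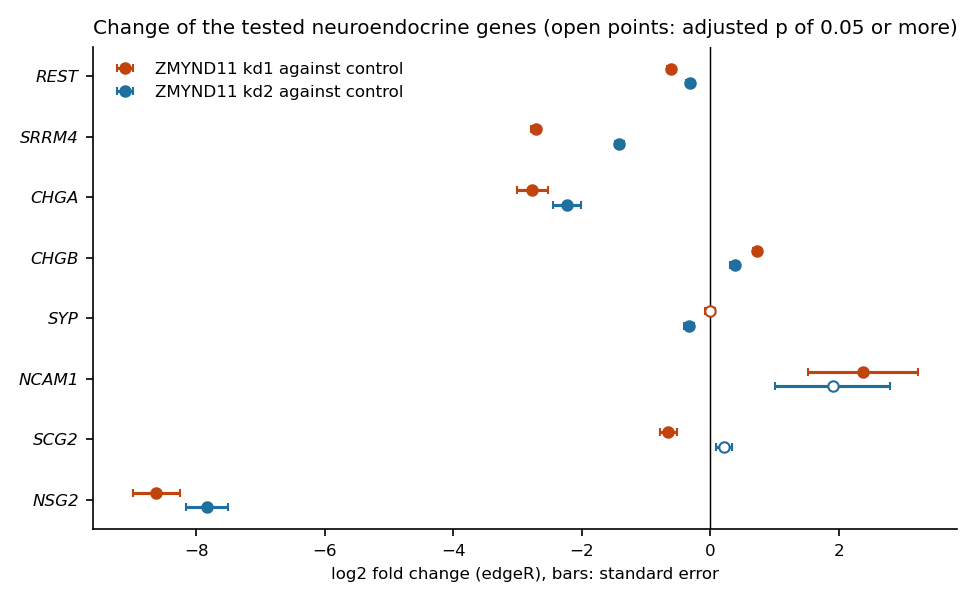
log2 fold change of the 8 tested genes in each knockdown against control, with bars for the standard error; open points did not pass the test at an adjusted p of 0.05. CHGB lies to the right of 0 in both knockdowns, REST, SRRM4, CHGA and NSG2 to the left, and the bars of NCAM1 are the widest.

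REST, the repressor itself (chr4:56907876-56966808, plus strand), was modestly lower in both knockdowns. Its level was 127.4 and 123.5 CPM in control, 85.7 and 78.0 CPM in kd1 and 100.8 and 99.7 CPM in kd2. All knockdown libraries lay below both control libraries, and those of kd1 lay lowest. The log2 fold change by edgeR was -0.62 in kd1 (SE 0.06, adjusted p = 2.17e-07), and in kd2 it was -0.32 (SE 0.06, adjusted p = 0.000173). REST was higher in kd2 than in kd1 by 0.29 (SE 0.06, adjusted p = 0.000524). With an adjustment for GC and length of genes, the log2 fold change was -0.08 in kd1 (adjusted p = 0.187), -0.17 in kd2, and -0.09 between the knockdowns (adjusted p = 0.182), so the call in kd1 and the order of the knockdowns were lost. Over the alternatives tried, the value in kd1 ran from -0.97 to -0.08, with adjusted p from 2.63e-21 to 0.187. The counts do not separate full-length REST from its truncated isoform. Of the exon sequence of REST, 0.861% overlaps NOA1 on the opposite strand.

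SRRM4, the neural microexon splicing factor (chr12:118981541-119163051, plus strand), had the highest level per length of the 9 genes in control cells and fell strongly in both knockdowns. Its counts were 7543 and 7360 in control, 1228 and 1108 in kd1 and 2986 and 3361 in kd2. Scaled, these were 247.9 and 237.0 CPM, 36.2 and 37.4 CPM, and 83.6 and 98.1 CPM. The groups did not overlap, and kd2 lay between the others. The level was 6.59-fold lower in kd1 (log2 fold change -2.72, SE 0.07, adjusted p = 3.94e-13 in edgeR) and 2.67-fold lower in kd2 (-1.42, SE 0.07, adjusted p = 2.01e-10). The knockdowns differed from each other by 1.30 (SE 0.07, adjusted p = 1.47e-09). These calls and their direction held under all 14 alternatives, with values from -3.08 to -2.25 in kd1 and from -1.59 to -1.12 in kd2.

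SRRM4 and REST fell by unequal amounts. The ratio of their RPKM levels was 1.497 and 1.476 in control, 0.325 and 0.369 in kd1 and 0.638 and 0.757 in kd2. SRRM4 was thus above REST per length in control and below it in all 4 knockdown libraries. SRRM3, the paralog that shares the microexon activity, took another course. It was at 47.1 and 46.4 CPM in control, 60.3 and 72.3 CPM in kd1 and 24.7 and 20.3 CPM in kd2. It was higher in kd1 by 0.50 (SE 0.09, adjusted p = 0.000208), a call that was lost with library totals alone, and lower in kd2 by 1.05 (log2 fold change -1.05, adjusted p = 2.65e-07). The ratio of SRRM4 to SRRM3 per length was 2.96 and 2.87 in control, 0.337 and 0.291 in kd1 and 1.90 and 2.72 in kd2.

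The 3 granins, which are acidic proteins of dense-core secretory granules, did not move together. CHGA (chromogranin A, chr14:92923150-92935285, plus strand) had 181 and 191 counts in control, 25 and 31 in kd1 and 45 and 45 in kd2. These were 5.95 and 6.15 CPM in control, 0.736 and 1.05 CPM in kd1, and 1.26 and 1.31 CPM in kd2. All 4 knockdown libraries lay far below both controls. CHGA was 6.82-fold lower in kd1 (log2 fold change -2.77, SE 0.24, adjusted p = 6.1e-08 in edgeR) and 4.69-fold lower in kd2 (-2.23, SE 0.22, adjusted p = 3.98e-07). The difference between the knockdowns was 0.54 (SE 0.28, adjusted p = 0.104), although their libraries did not overlap. It passed the test with library totals alone (0.72, adjusted p = 0.0319) and with the adjustment for GC and length of genes (1.12, adjusted p = 0.00238), and the adjusted p over the alternatives ran from 0.00238 to 0.452.

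CHGB (chromogranin B, chr20:5911510-5925353, plus strand) rose where CHGA fell. It was at 46.5 and 50.1 CPM in control, 78.7 and 80.9 CPM in kd1 and 64.5 and 60.9 CPM in kd2. No groups overlapped, and kd1 was highest. The rise was 1.65-fold in kd1 (log2 fold change 0.72, SE 0.06, adjusted p = 8.79e-08 in edgeR) and 1.30-fold in kd2 (0.38, adjusted p = 0.000107). kd2 was lower than kd1 by 0.35 on the log2 scale (log2 difference -0.35, adjusted p = 0.000195). The rises were 0.37 and 0.21 with library totals alone and still passed. The ratio of CHGB to CHGA per length was 5.32 and 5.54 in control, 72.8 and 52.6 in kd1 and 34.9 and 31.5 in kd2, so the pair diverged in all 4 knockdown libraries. Each holds an RE1 match with 0 or 1 mismatch, and a part of REST in this was not tested.

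SCG2 (secretogranin II, chr2:223596940-223602361, minus strand) differed between the knockdowns. It was at 8.71 and 9.50 CPM in control, 5.50 and 6.05 CPM in kd1 and 10.9 and 10.3 CPM in kd2. The groups did not overlap, with kd1 below control and kd2 above it. The log2 fold change was -0.66 in kd1 (SE 0.13, adjusted p = 0.000362 in edgeR) and 0.22 in kd2 (SE 0.12, adjusted p = 0.125). The difference itself was 0.88 (SE 0.13, adjusted p = 2.76e-05). With library totals alone the value in kd1 was -1.01, and over the alternatives that in kd2 ran from 0.03 to 0.28 without passing the test.

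SYP (synaptophysin, a membrane protein of synaptic vesicles, chrX:49187815-49200218, minus strand) changed little. Its level was 95.2 and 102.5 CPM in control, 96.0 and 101.7 CPM in kd1 and 85.8 and 71.1 CPM in kd2. Control and kd1 overlapped fully, and both kd2 libraries were lower. The log2 fold change in kd1 was -0.00089 (SE 0.08, adjusted p = 0.993 in edgeR), so SYP differed there by less than the spread between libraries. In kd2 it was -0.33 (SE 0.08, adjusted p = 0.00156), and between the knockdowns it was also -0.33 (adjusted p = 0.00174). With library totals alone SYP was lower in kd1 too (-0.36, adjusted p = 0.000409, against a highest adjusted p of 0.999 over the alternatives) and -0.50 in kd2, and the difference between the knockdowns did not pass (-0.15, adjusted p = 0.0839). With the adjustment for GC and length of genes the value in kd2 was -0.19 and passed.

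NSG2 (neuronal vesicle trafficking associated 2, a protein of neuronal endosomes, chr5:174045706-174243501, plus strand) was nearly absent from the knockdown libraries. It had 410 and 445 counts in control, 2 and 0 in kd1 and 3 and 1 in kd2. Both control libraries, at 13.5 and 14.3 CPM, lay far above the 4 knockdown libraries, of which none exceeded 0.0840 CPM. By summed counts, 855 against 2, the control level was 442 times that in kd1 (exact 95% counting interval 122 to 3656), and by 855 against 4 it was 243.3 times that in kd2 (94.7 to 894.9). These intervals cover counting error only. The fitted log2 fold changes, -8.62 in kd1 (adjusted p = 2.85e-11 in edgeR) and -7.83 in kd2 (adjusted p = 4.6e-11), depend on the prior count at such low values. Ranked from the lowest, they stood in place 5 and place 11 of 16510 genes. However, NSG2 passed the low-count filter only through the control libraries, where it is higher, so these values and places are descriptive only. The 2 knockdowns could not be told apart (0.79, SE 1.15, adjusted p = 0.556), and their libraries overlapped. Its fall was known when the genes were chosen, so its presence among the 9 supports nothing.

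NCAM1 (neural cell adhesion molecule 1, the CD56 antigen, chr11:112961275-113278436, plus strand) was at trace counts throughout, with 5 and 0 in control, 18 and 10 in kd1 and 11 and 11 in kd2. Every knockdown library had more than either control library, but none exceeded 0.530 CPM. It passed the low-count filter only through the knockdown libraries, where it is higher. By summed counts, 28 against 5, the level in kd1 was 5.42 times that in control (counting interval 2.07 to 18.0), and by 22 against 5 that in kd2 was 3.87 times (1.43 to 13.1). In edgeR the log2 fold change was 2.37 in kd1 (SE 0.85, adjusted p = 0.0205) and 1.90 in kd2 (SE 0.89, adjusted p = 0.0681). The call in kd1 was lost without control replicate 2 (1.39, adjusted p = 0.198) or without kd1 replicate 1 (2.01, adjusted p = 0.1299), and without control replicate 1 the value was 6.86. Over its alternatives the adjusted p in kd1 ran from 0.00480 to 0.198 and that in kd2 from 0.0162 to 0.415. Exons of NCAM1-AS1 on the opposite strand overlap 4.83% of the exon sequence of NCAM1, and NCAM1-AS1 has no counts of its own here. Its reads could add to counts this low if strand was not used, which was not tested.

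INSM1 (a zinc finger factor of neuroendocrine progenitors, chr20:20368104-20370949, plus strand) was below detection. It had 0 and 2 counts in control and 0 in each of the 4 knockdown libraries. A count of 0 allows up to 3 counts, or between 0.0840 and 0.101 CPM in these libraries, so a change of INSM1 was not detectable at this depth. The paralog INSM2 had 2 and 4 counts in control, 17 and 8 in kd1 and 29 and 30 in kd2, and like NCAM1 it passed the filter only through the knockdown libraries. Its log2 fold change was 1.96 in kd1 (SE 0.71, adjusted p = 0.0207 in edgeR), a call lost under 5 of 12 alternatives, and 3.06 in kd2 (SE 0.63, adjusted p = 0.000512).

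The knockdowns differed in size for several of these genes. Between kd2 and kd1, 5 of 8 tested genes were called, against 68.8% of all genes tested. SRRM4, REST and SCG2 were higher in kd2, and CHGB and SYP were lower in it. For SRRM4, REST and CHGB the level in kd2 lay between control and kd1, an order that REST lost with the adjustment for GC and length. ZMYND11 itself was lower in kd2 than in kd1 (-0.28, adjusted p = 0.00265). No relation of these genes to the ZMYND11 level was tested. With library totals alone that difference of ZMYND11 was -0.10 and did not pass the test (adjusted p = 0.259).

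**Figure D4:**
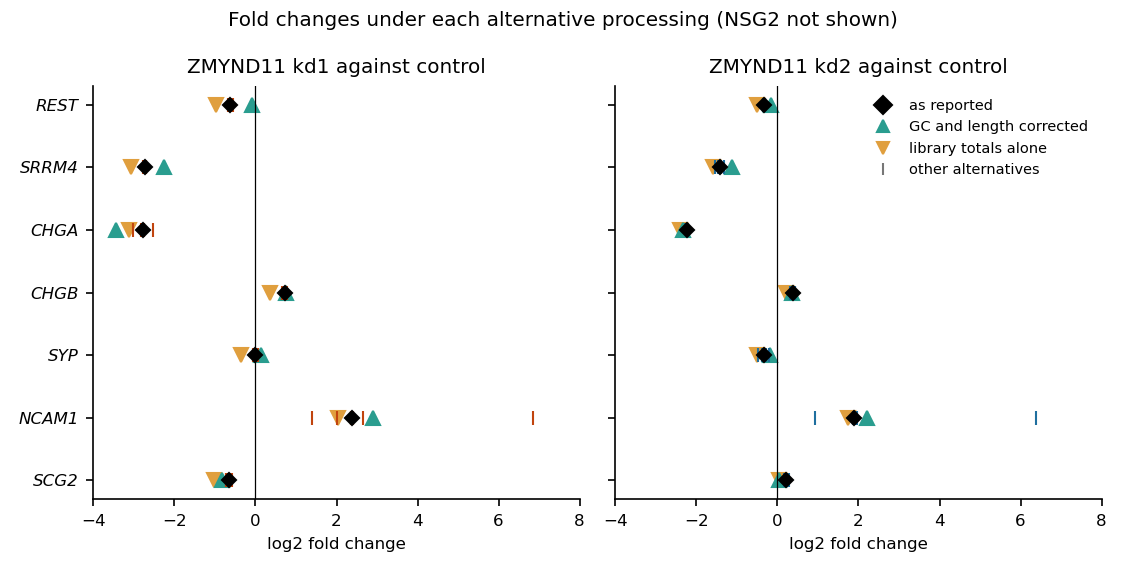
log2 fold change of 7 tested genes in each knockdown under every processing alternative; diamonds are the values given in the text, upward triangles the adjustment for GC and length of genes, downward triangles scaling by library totals alone, and ticks the other alternatives. SRRM4 and CHGA stay left of 0 and CHGB right of it, REST in kd1 reaches -0.08 under the adjustment, and NCAM1 spreads from 1.39 to 6.86 in kd1.

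The wider program around these genes was read from 6 lists, each described by its counts beside the shares of all genes called given above. By direction, 38.2% of all genes tested were higher and 39.8% lower in kd1, and 36.5% and 36.9% in kd2. Partners of REST, most of them corepressors but with regulators of its degradation among them, were called in both directions. Of 20 tested, 6 rose and 10 fell in kd1 (median log2 fold change -0.27), and 6 rose and 11 fell in kd2 (-0.16), against medians of -0.03 over all genes. With library totals alone, 1 rose and 17 fell in kd1 (median -0.62), and 3 rose and 13 fell in kd2 (median -0.33). With the adjustment for GC and length of genes, 7 rose and 10 fell in kd1 (median -0.09), and 9 rose and 6 fell in kd2 (median 0.08), so the balance of directions depends on the scaling. RCOR2, a CoREST scaffold, had 17.0 and 18.4 CPM in control, 4.003 and 4.053 CPM in kd1 and 1.79 and 1.26 CPM in kd2, with log2 fold changes of -2.13 (SE 0.15, adjusted p = 4.64e-09 in edgeR) and -3.53 (SE 0.17, adjusted p = 1.41e-10). MED12, a Mediator subunit that REST can recruit, changed by -2.42 and -0.91, the latter -0.51 with the adjustment. The deacetylase HDAC2 rose by 0.60 in kd1 and 0.20 in kd2, the latter not called with library totals alone or without control replicate 1. In kd1 the rise of HDAC2 was 0.25 with library totals alone and 1.40 with the adjustment, called in both. BTRC, the ubiquitin ligase subunit that marks REST for degradation, rose by 1.08 in kd2 (adjusted p = 1.02e-08). Its rise in kd1 was 0.25, and with library totals alone the value was -0.11. The call was also lost without control replicate 2 or without kd1 replicate 1.

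Neuronal genes that REST is known to repress did not move in one direction. Of 22 listed, 20 were tested. In kd1, 12 rose and 5 fell (median 0.30), and in kd2, 6 rose and 8 fell (median -0.12). With library totals alone, 8 rose and 8 fell in kd1 (median -0.05), and 5 rose and 11 fell in kd2 (median -0.29). With the adjustment for GC and length, 11 rose and 8 fell in kd1, and 7 rose and 10 fell in kd2. CDK5R2, an activator of the neuronal kinase CDK5, was at 6.64 and 5.76 CPM in control, 19.5 and 17.4 CPM in kd1 and 16.3 and 15.9 CPM in kd2. It rose by 1.57 (SE 0.12, adjusted p = 1.18e-08) and 1.38 (SE 0.12, adjusted p = 7.95e-08), and with the adjustment for GC and length its rise in kd1 was 0.51. KIF1A, the motor of synaptic vesicle precursors, rose by 1.41 and 1.33. GRIA2, an AMPA receptor subunit whose RE1 match is exact, went the other way, from 20.05 and 19.96 CPM in control to 6.06 and 5.17 CPM in kd1 and 5.21 and 5.28 CPM in kd2, with log2 fold changes of -1.83 (SE 0.12, adjusted p = 3.06e-09) and -1.93 (SE 0.12, adjusted p = 2.61e-09). SCN2A, a neuronal sodium channel, changed by -2.58 and -1.64. In kd1 the adjustment gave -1.05 for GRIA2 and -1.71 for SCN2A, both still called.

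Genes with an RE1 match were called in both directions. Of 492 such protein-coding genes in the table, 353 were tested, and 142 rose and 133 fell in kd1 (median 0.02), while 117 rose and 144 fell in kd2 (median -0.12). Of 14005 tested genes with no match, 39.8% rose and 40.4% fell in kd1, and 38.5% rose and 37.4% fell in kd2. Among the 45 tested genes with at most 1 mismatch, 20 rose and 15 fell in kd1 (median 0.51), and 16 rose and 16 fell in kd2 (median 0.10). Between the knockdowns, 96 matched genes (27.2%) were higher in kd2 and 147 (41.6%) lower, against 36.8% and 35.2% of genes with no match, and at no more than 1 mismatch 8 were higher and 19 lower. Differences between the knockdowns also went with GC content over all genes (Spearman rho -0.306, n = 15950), whose part in this was not tested. CHGA, CHGB, SRRM4 and SYP belong to the matched genes, and among them CHGB alone rose in either knockdown.

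Among splicing regulators, more calls were lower than higher, against near-equal shares over all genes, and the balance in kd1 depends on the processing. Those called lower in both knockdowns include ELAVL4, which passed the filter only through the control libraries. Of 15 tested, 4 rose and 9 fell in kd1 (median -0.54) and 2 rose and 8 fell in kd2 (median -0.26). With the adjustment for GC and length of genes the median in kd1 was -0.09, with 4 higher and 6 lower. ELAVL2, a neuronal RNA-binding protein, changed by -2.13 (SE 0.20, adjusted p = 1.50e-07) in kd1 and -1.84 (SE 0.19, adjusted p = 6.10e-07) in kd2. PTBP2, the neural polypyrimidine tract binding protein, changed by -1.15 and -1.04, and by -0.31 in kd1 with the adjustment. QKI, which regulates epithelial and glial exons, rose by 0.74 and 1.20, and its rise in kd1 was 0.38 with library totals alone and 1.55 with the adjustment.

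Among lineage factors of neuroendocrine and neural fates, 20 of 26 were tested, and 4 had at most 3 counts in every library. In kd1, 4 rose and 10 fell (median -0.91), and in kd2, 7 rose and 9 fell (median -0.42). Those that rose in kd2 include FOXA2, which had at most 1 count in a control or kd1 library and passed the filter only through kd2. Those that fell in kd1 include MYCN and ST18, which passed the filter only through the control libraries, where they are higher. The median in kd2 was -0.21 with the adjustment for GC and length, with the same counts. The neurogenic factor NEUROD1 had at most 2 counts in any library. AURKA, the mitotic kinase that stabilises N-Myc, had 37.6 and 39.6 CPM in control, 1.33 and 2.23 CPM in kd1 and 5.07 and 4.99 CPM in kd2, with log2 fold changes of -4.46 (SE 0.16, adjusted p = 4.14e-12) and -2.94 (SE 0.13, adjusted p = 7.81e-11). EZH2, the H3K27 methyltransferase, changed by -2.59 and -1.86. AURKA and EZH2 are also expressed in proliferating cells of any type. The Notch target HES1, a repressor of proneural factors, rose by 2.13 (SE 0.07, adjusted p = 3.11e-12) and 1.63 (SE 0.07, adjusted p = 6.63e-11). NKX2-1, a factor of lung and neuroendocrine cells, rose by 2.12 and 1.97.

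Secretory granule and vesicle genes were divided like the granins. Of 27 listed, 19 were tested, and 4 had at most 3 counts in every library. In kd1, 9 rose and 5 fell (median 0.18), and with library totals alone 6 rose and 8 fell (median -0.17). With the adjustment for GC and length of genes, 6 rose and 7 fell. In kd2, 10 rose and 6 fell (median 0.79). RAB3A, a GTPase of regulated exocytosis, was at 7.76 and 8.21 CPM in control, 35.5 and 34.4 CPM in kd1 and 25.3 and 23.1 CPM in kd2, a rise of 2.13 (SE 0.09, adjusted p = 4.04e-11) and 1.60 (SE 0.10, adjusted p = 1.64e-09). With the adjustment its rise in kd1 was 1.23. PCSK1N, an inhibitor of the prohormone convertase PC1, rose by 1.10 in kd1 and 1.99 in kd2, but was lower in kd1 with the adjustment (-0.27). DDC, the decarboxylase of monoamine synthesis, fell to 24 and 12 counts in kd1 and 24 and 13 in kd2 from 450 and 456, with log2 fold changes of -4.70 (SE 0.23, adjusted p = 1.45e-10) and -4.79 (SE 0.23, adjusted p = 1.91e-10). CALCA, the calcitonin gene, changed by -2.02 and -3.87.

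**Figure D5:**
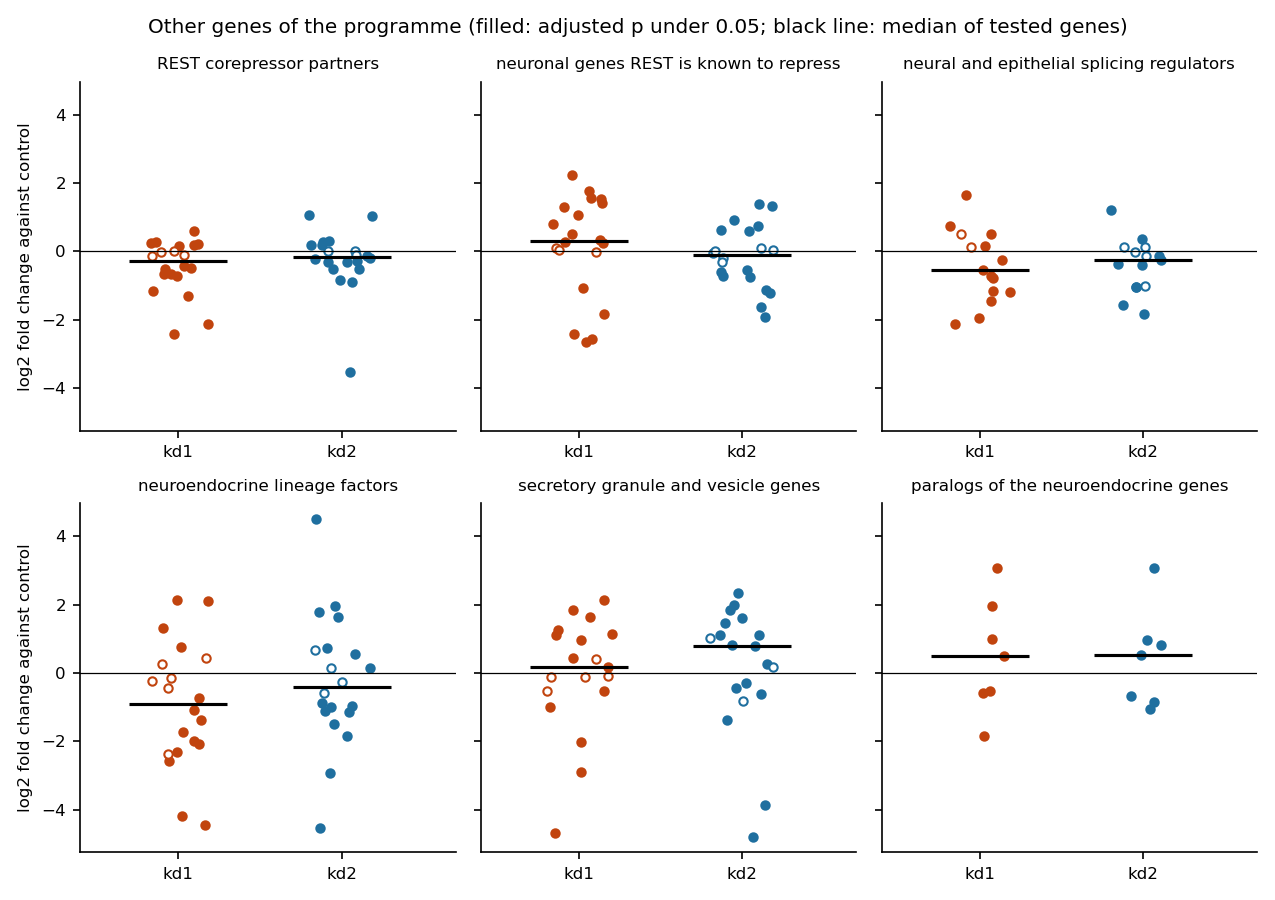
log2 fold change against control of each tested gene in the 6 lists, for kd1 and kd2; filled points passed the test at an adjusted p under 0.05, open points did not, and black lines are medians. Every list holds genes on both sides of 0 in both knockdowns, with medians from -0.91 for lineage factors in kd1 to 0.79 for secretory genes in kd2.

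Close relatives of the 9 genes were called in both directions. Of 8 paralogs, 7 were tested, and 4 rose and 3 fell in each knockdown, and those that rose include INSM2, tested only through its knockdown counts. In kd1, 2 rose and 3 fell with library totals alone. NSG1, the relative of NSG2, had 122 and 160 counts in control, 103 and 97 in kd1 and 95 and 82 in kd2. Its log2 fold changes were -0.54 (SE 0.20, adjusted p = 0.0213) and -0.86 (SE 0.20, adjusted p = 0.00135), and the call in kd1 was lost with the DESeq2 Wald test, without control replicate 2 and without kd1 replicate 1. CALY, another protein of that family, rose by 3.08 (SE 0.22, adjusted p = 5.87e-09) in kd1 and 0.97 (SE 0.25, adjusted p = 0.00288) in kd2. SYPL1, the relative of SYP, rose by 0.99 and 0.81, and by 0.63 in kd1 with library totals alone. NCAM2, the relative of NCAM1, changed by -1.86 and -0.69, and its 396 to 1495 counts stood far above those of NCAM1.

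For each gene, the tested genes with the most similar course over the 6 libraries were named by the root mean square difference of centred log2 CPM. For REST these were METAP1 (0.021) and TRMT11 (0.033), and for SRRM4 FADS1 (0.055) and DNMT1 (0.061). For CHGA they were CHAF1A (0.082) and PRTG (0.099), and for CHGB MGAT1 (0.023) and AXIN1 (0.027). SYP was nearest to TPRKB (0.029) and NAGLU (0.031), and SCG2 to SLC1A5 (0.038) and BRMS1L (0.050). NSG2 had no close match, with PIF1 at 0.37 and ASPM at 0.38, nor had NCAM1, with ST6GALNAC4P1 at 0.21 and KIAA2012 at 0.29. These values describe levels over 6 libraries only.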

How the data were processed

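RNA sequencing of 6 libraries of 22Rv1 cells was analysed, 2 per group as labelled. The authors deposited unnormalized read counts, 1 row per gene symbol. The authors checked reads with FastQC 0.11.9 and aligned them to hg38 with STAR 2.7.9a, and HTSeq 0.13.5 is named in the submitters' processing notes. The annotation and strand setting of the counting are not given in the sources used here, so reads from overlapping antisense genes may be included. Depth is given by the total count per library.

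From these counts, genes passing filterByExpr were fitted in R 4.3.3 using edgeR 4.0.16 (TMM scaling, quasi-likelihood test, one fit of 3 groups with 3 residual degrees of freedom). P-values were adjusted over all 16510 genes tested by the Benjamini-Hochberg method and called under 0.05. The adjusted p-values in the report are from this fit unless an alternative is named. The 2 kd2 libraries differed most from each other, with a chi-square per degree of freedom of 10.7 over genes. It was 2.36 in control and 3.97 in kd1. The fit shares one estimate of spread per gene over the groups, so p-values of kd2 do not reflect its larger spread. DESeq2 1.42.0 served alternatives. The fitting step was tested on simulated counts. A gene with at most 3 counts in every library was called below detection. Of 35322 symbols, 32852 matched GENCODE 44 by name and 2470 did not. Coordinates are of GRCh38, 1-based.

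The 9 genes and the lists were chosen with earlier results of these data known. Named besides them were ZMYND11, up to 2 largest rises and 2 largest falls per list among genes whose calls had 1 direction in the knockdowns and whose mean log2 CPM was 0 or more, and the 2 most similar genes for each. SRRM3, INSM2, NEUROD1, COL1A1, FOXA2, L1CAM, NPY, PROX1 and PTPRN2 were named after their values were seen.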

Additional observations from a re-analysis of the deposited data

Results flagged for a closer look

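SCG2 had effects of opposite sign in the 2 knockdowns, below control in kd1 and slightly above it in kd2, where it did not pass the test. The difference between the knockdowns was tested and was 0.88 on the log2 scale (SE 0.13, adjusted p = 2.76e-05 in edgeR).

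None of the 8 tested neuroendocrine genes was called in opposite directions in the knockdowns, against 1502 of 16510 genes (9.10%) over all genes tested. Among the listed genes, 4 were called in opposite directions and differed by at least 2 on the log2 scale. L1CAM, a neural adhesion molecule on the REST list, was at 9.04 and 8.05 CPM in control, 41.1 and 39.4 CPM in kd1 and 5.35 and 4.82 CPM in kd2, a difference of -2.98 between the knockdowns (adjusted p = 1.92e-11). NPY, neuropeptide Y, had 98 and 122 counts in control, 337 and 368 in kd1 and 45 and 52 in kd2, a difference of -3.00 (adjusted p = 5.87e-09). PTPRN2, a membrane protein of dense-core granules, had 30.3 and 32.5 CPM in control, 4.62 and 3.82 CPM in kd1 and 65.3 and 70.8 CPM in kd2, a difference of 4.003 (adjusted p = 1.93e-12). PROX1, a homeobox factor, had 37 and 66 counts in control, 4 and 17 in kd1 and 191 and 214 in kd2, a difference of 4.11 (adjusted p = 4.48e-07). In kd1 against control, NPY was 0.91 with the adjustment for GC and length against 1.64, and PROX1 was -3.79 and -1.53 without one or the other kd1 library against -2.32. No cause of these differences was tested.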

How the results depend on the processing

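Of 369 values of the 8 tested genes and ZMYND11 under the alternatives (27 results), 350 kept their direction and side of the threshold, 5 lost the call, 5 gained one and 9 changed sign, and all 210 counts of called genes stayed within 1.5 times. SYP in kd1 changed sign around 0, at 0.0049 with DESeq2 size factors, 0.0051 with the DESeq2 Wald test, 0.14 with the adjustment for GC and length of genes, and from -0.059 to 0.051 with 1 library left out. NSG2 between the knockdowns ran from -0.10 to 3.98 with 1 library left out, and REST between the knockdowns was -0.086 with the adjustment. Calls gained in kd2 were those of NCAM1, at 2.21 with the adjustment (adjusted p = 0.0316) and 6.39 without control replicate 1 (adjusted p = 0.0162). Library totals alone moved the median of all genes to -0.38 in kd1 and -0.20 in kd2, and the share of higher calls from 49.0% to 35.3% in kd1 and from 50.8% to 61.1% between the knockdowns. Fits with the replicate number as a block (replicate block) gave 7, 6 and 5 called genes of the 8, as without it. Same-numbered libraries did not deviate together (r from -0.044 to 0.0062 over genes), so the numbers were not taken as pairs. Spearman's rho of the fold change with GC content and with gene length over 15950 genes was 0.205 and -0.283 in kd1, -0.022 and -0.130 in kd2, and -0.306 and 0.239 between the knockdowns, and the cause was not tested. Depth limits INSM1, NCAM1 and the residual NSG2 counts. Leaving out a library leaves 1 in its group, which is assumed to vary like the others.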

Other observations

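FOXA2, a pioneer factor linked to neuroendocrine prostate tumours, had 0 and 1 counts in control, 0 in both kd1 libraries and 22 and 10 in kd2. MYCN, which encodes N-Myc, had 65 and 63 counts in control, 1 and 6 in kd1 and 3 and 3 in kd2. VGF, a granin-like neuropeptide precursor, was at 859.0 and 841.9 CPM in control, 860.2 and 897.4 CPM in kd1 and 415.3 and 363.2 CPM in kd2, with log2 fold changes of 0.05 (adjusted p = 0.491 in edgeR) and -1.13 (adjusted p = 6.99e-10). In kd1 VGF was called lower with library totals alone and with the adjustment for GC and length, where the value was -1.14 (adjusted p = 1.12e-12). These 3 genes were named after their values were seen.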
